A study of Mus musculus with 4 samples.

Results

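CXCL9, CXCL10 and CXCL11 are the chemokines that interferons induce, and CXCR3 is the receptor they share. These 4 genes were taken, out of 36601 human genes counted, by their symbols in the feature lists of both reactions, as ENSG00000138755 for CXCL9, ENSG00000169245 for CXCL10, ENSG00000169248 for CXCL11 and ENSG00000186810 for CXCR3. The rule used the symbols and no threshold on a measured value. Human CD45+ cells had been sorted alive from tumors of MDA-MB-231, a human triple-negative breast carcinoma line, grown in the mammary fat pad of MISTRG mice. These immunodeficient mice carry human cytokine genes (M-CSF, GM-CSF and IL-3 among them), and as irradiated pups they had received CD34+ cells from human fetal liver, so their lymphoid and myeloid cells are human while the stroma is of the host. Of 14 mice, 7 were left untreated and 7 received the drug maraviroc in the drinking water at 300 mg/l from day 21 for 10 days. All tumors were taken on day 31, and both groups carried the same line and the same graft type. The design compares the tumor-infiltrating human cells of treated and untreated mice. The labels tie no mouse to a cell donor, and the feature lists hold human genes alone, so chemokines made by host cells were not measured. The sort selected CD45+ cells, and only 26 cells fell in the carcinoma class, so chemokines made by carcinoma cells were hardly covered.

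The 3 chemokines are small secreted proteins that draw CXCR3-bearing cells along a gradient. Their genes lie side by side and are switched on after interferon gamma, the cytokine that T and NK cells release. CXCL9 depends most on interferon gamma, whereas CXCL10 and CXCL11 also answer type I interferons, and CXCL11 binds CXCR3 most tightly. CXCR3 is carried by activated T helper 1 and CD8 T cells, by many NK cells and by plasmacytoid dendritic cells, with T-bet (TBX21) as a main activator in T cells. In tumors, macrophages and dendritic cells are known sources of these ligands.

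Cells were counted in 2 droplet reactions, each holding 7 mice told apart by antibody hashtags. Of 29120 and 13582 barcodes in reactions 1 and 2, 19817 passed the limits on detected genes and mitochondrial share and carried a single hashtag. In reaction 1, 27645 barcodes passed the limits and only 11917 of them carried a single hashtag, against 10161 and 7900 in reaction 2. The reactions differed in depth, with a median of 3020 UMIs (unique molecular identifiers, each standing for 1 captured transcript) per kept cell in reaction 1 and 9691.5 in reaction 2. Marker UMIs, never those of the 4 genes, placed 14592 cells in a class, and 39.8% of kept cells in reaction 1 against 6.09% in reaction 2 stayed outside every class, at median depths of 1900 and 4558 UMIs. The classes carried the markers that the gates used. C1QA stood at 2121 CPM (UMIs of the gene per 1000000 UMIs of the class) in macrophages against 173 in monocytes. VCAN was at 3954 CPM in monocytes against 177 in macrophages. CD3D was at 903 CPM in T cells against 18.5 in NK cells, where the gate itself capped CD3D and TRAC. T markers without that cap, CD3G, CD3E, TRBC1 and TRBC2, were at 444, 320, 659 and 516 CPM in T cells. In NK cells they were at 9.77, 185, 182 and 186 CPM. C1QA was also at 29.7 CPM in T cells, which shows the level an abundant macrophage transcript reached in cells that should lack it. The reactions shared 136 barcodes, 31 of them among kept cells. Macrophages, monocytes, conventional and mature dendritic cells and 2505 myeloid cells that met neither the macrophage nor the monocyte gate are here called senders and numbered 9131 cells (398 to 976 per mouse). T cells, NK cells and 1785 cells that the markers left between T and NK are called receivers and numbered 4927 (120 to 743 per mouse). In 2 untreated mice, mouse 2 of reaction 1 and mouse 3 of reaction 2, T cells were nearly missing, with 6 and 7 cells against a median of 170 per mouse. The same mice had the lowest CXCL9 of all in senders, at 14.43 and 17.04 CPM, and the lowest CXCR3 in receivers, at 38.5 and 35.4 CPM. They stayed in the comparisons of every class in which they had at least 20 cells. Treatment fold changes of the 4 genes whose sign changes without them are given both ways. Fold changes of other genes in senders and receivers were not examined without them.

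Among the sorted cells, senders held nearly all of the ligand transcripts, and receivers most of the receptor. Of 9105 CXCL9 UMIs in kept cells 92.1% lay in senders, as did 92.1% of 42646 CXCL10 UMIs and 89.9% of 2543 CXCL11 UMIs. Of 2869 CXCR3 UMIs 78.1% lay in receivers, 43.8% in T cells, 9.9% in NK cells and 24.4% in the cells between T and NK, while plasmacytoid dendritic cells, only 157 in number, held another 5.47%. Within a mouse, macrophages held a median of 65.1% of the CXCL9 UMIs (21.4% to 86.0%), 49.0% of CXCL10 (17.6% to 79.3%) and 58.7% of CXCL11 (5.75% to 91.9%). No single class thus held most of the UMIs of the kept cells in every mouse. CXCL9 in senders ran per mouse from 14.4 to 315 CPM (median 83.8), CXCL10 from 219 to 788 (median 369) and CXCL11 from 9.60 to 77.3 (median 18.3). In receivers of the same mice the ranges were 0 to 2.37, 3.12 to 21.2 and 0 to 5.27 CPM, with no overlap for any of the 3 ligands. For CXCR3 the order was turned, with 35.4 to 77.8 CPM in receivers against 0.386 to 5.42 in senders. With the mouse as a block, edgeR's quasi-likelihood test gave log2 differences between senders and receivers of 6.57 ± 0.177 (SE, 14 mice) for CXCL9, 5.75 ± 0.172 for CXCL10 and 5.18 ± 0.334 for CXCL11, and of -4.97 ± 0.202 for CXCR3, each with an adjusted p of 5.08e-11 or less. In this comparison of unlike cells 83.1% of 12773 genes passed, so the calls alone say little about the members.

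**Figure D1:**
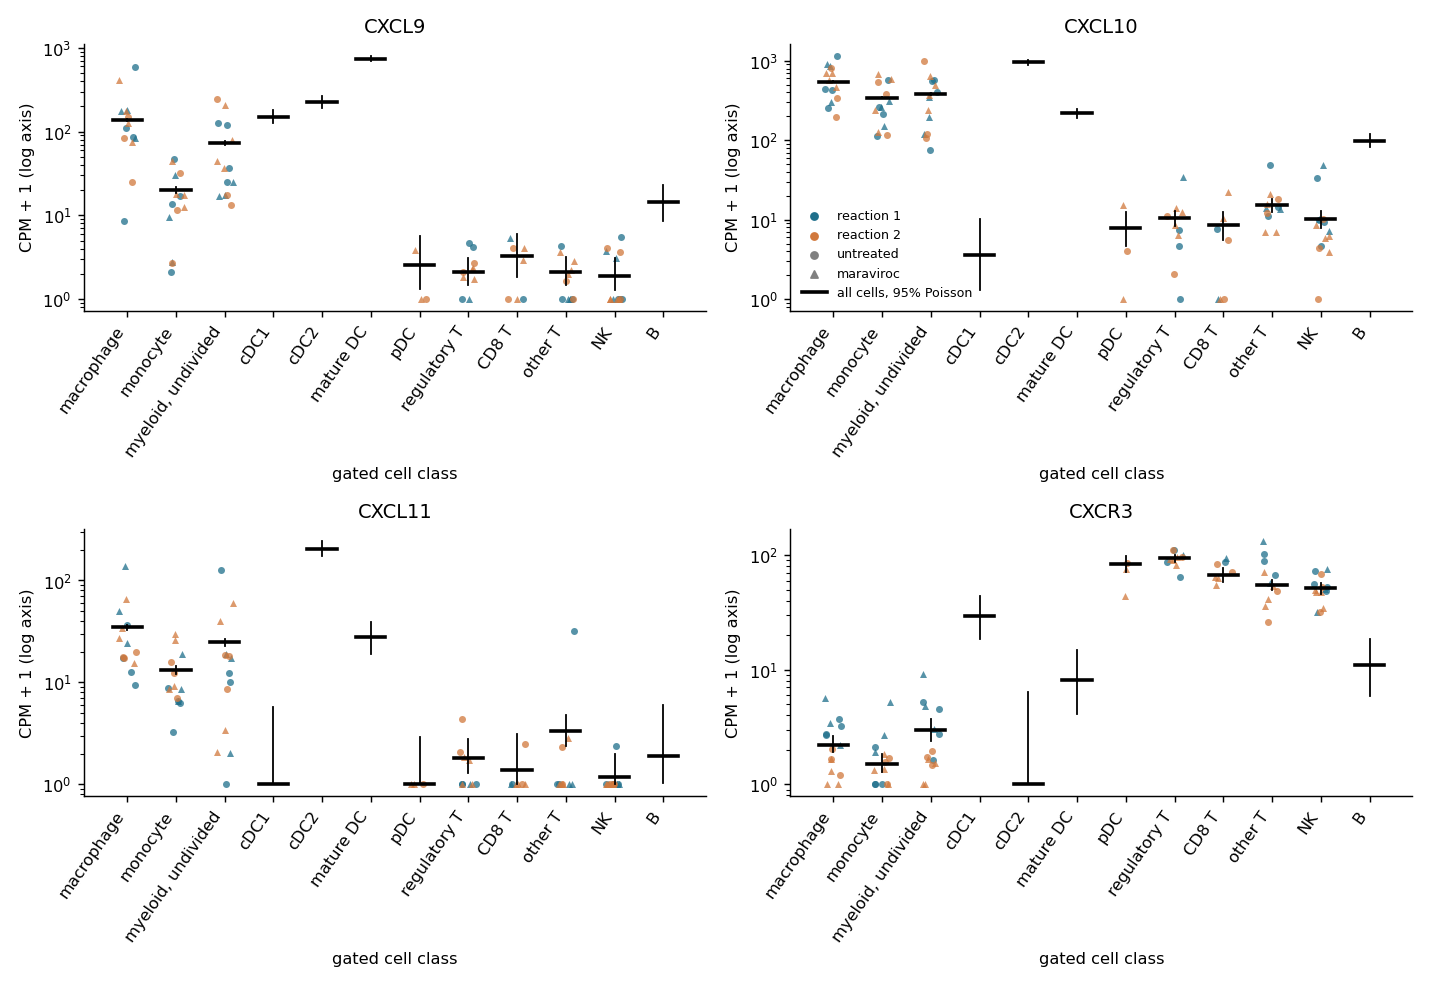
Levels of CXCL9, CXCL10, CXCL11 and CXCR3 (CPM + 1, log axis) in each gated cell class; small points are single mice with at least 20 cells of the class, colored by reaction and shaped by treatment, and black bars are all cells together with 95% Poisson intervals. The ligands are higher in macrophages, monocytes, type 2 and mature dendritic cells (cDC2, mature DC) than in T and NK cells, type 1 cells (cDC1) are high in CXCL9 alone, and CXCR3 is highest in T, NK and plasmacytoid dendritic cells (pDC).

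Among the abundant senders, macrophages carried more of all 3 ligands than monocytes of the same tumor, and CXCL9 differed most. Macrophage CXCL9 ran from 7.68 to 595 CPM over the 14 mice (median 117) and monocyte CXCL9 from 1.11 to 46.3 (median 14.1). It was higher in macrophages in 14 of 14 mice, by 2.98 ± 0.212 on the log2 scale (edgeR, adjusted p = 2.05e-11). CXCL10 ran from 196 to 1146 CPM in macrophages (median 518) and from 112 to 684 in monocytes (median 260), and was higher in macrophages in 10 of 14 mice. Its difference was 0.82 ± 0.222 (edgeR, adjusted p = 0.00263), and in reaction 2 alone it was 0.55 with an adjusted p of 0.123. CXCL11 ran from 8.53 to 138 CPM in macrophages (median 21.1) and from 2.23 to 28.9 in monocytes (median 7.77). It was higher in macrophages in 13 of 14 mice, by 1.33 ± 0.221 (edgeR, adjusted p = 1.4e-05). In this contrast 65.7% of 10636 genes passed. The difference was present as well in the number of cells with a transcript. After each cell was thinned to 2000 UMIs, 9.30% ± 5.08 (SD over 14 mice) of macrophages and 1.42% ± 1.15 of monocytes held CXCL9, higher in macrophages in 14 of 14 mice, with p = 0.000122, the smallest that the exact sign-flip permutation test allows. For CXCL10 the shares were 21.4% ± 10.1 and 11.01% ± 5.39 (exact permutation test, two-sided, p = 0.000488), and for CXCL11 2.84% ± 1.56 and 1.26% ± 0.63 (p = 0.00183 by the same exact test). Before thinning, 14.7%, 31.4% and 5.88% of macrophages had a UMI of CXCL9, CXCL10 and CXCL11, against 0.679%, 4.76% and 0.136% of NK cells, which give the background. Median depths were 9868 UMIs in macrophages, 9751.5 in monocytes and 6729.5 in NK cells.

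Dendritic cells were few, with 223 conventional and mature cells in all and 6 to 27 per mouse, but their subsets differed widely in which ligand they carried. Levels here are those of all cells of a subset together, with 95% Poisson intervals that cover counting error only. Mature dendritic cells, marked by LAMP3 and CCL17 and known for carrying antigen to T cells, had the highest CXCL9 of any class at 742 CPM (693 to 794), found in 44 of 88 cells. Their level was 1186 CPM in reaction 1 and 567 in reaction 2. Type 2 dendritic cells, marked by CD1C, were at 953 CPM for CXCL10 (881 to 1029), found in 16 of 69 cells. Of those 653 UMIs, 331 came from 9 cells of untreated mouse 1 of reaction 2, and without that mouse the level was 568.04 CPM (508 to 634), beside 546 in all macrophages. Their CXCL11, at 204 CPM, came from 3 of 69 cells. In untreated mouse 2 of reaction 1 a single cell held 124 of the 140 UMIs, and without that mouse the level was 24.6 CPM. The gate of type 2 cells put no cap on monocyte genes. They carried VCAN and FCN1 at 1039 and 422 CPM, against 3954 and 763 in monocytes and 177 and 26.4 in macrophages. The part of monocyte-like cells in their ligand levels was not tested. Type 1 dendritic cells, the CLEC9A+ cells known for presenting antigen to CD8 T cells, stood at 150 CPM for CXCL9 (124 to 180) with only 2 CXCL10 UMIs and no CXCL11 UMI in 66 cells, which for CXCL11 allows up to 3.85 CPM. Most of that CXCL9 lay in reaction 1, at 402 CPM against 21.3 in reaction 2, and 1 mouse gave 67 of the 117 UMIs, without which the level was 66.6 CPM. IDO1, an enzyme of tryptophan breakdown that interferon gamma induces, was likewise far higher in mature (740 CPM) and type 1 cells (490 CPM) than in macrophages (6.36 CPM). Only 4 mice had 20 or more of these dendritic cells. In those, CXCL9 ran from 184 to 547 CPM, and macrophages of the same mice were lower, with a log2 difference of -0.98 ± 0.261 (edgeR, adjusted p = 0.0112). That call was lost, at -0.67 and an adjusted p of 0.158 in edgeR, among cells with above 1000 detected genes. Monocytes were lower still, with a log2 difference of -3.79 ± 0.372 (edgeR, adjusted p = 1.46e-05). For CXCL10 and CXCL11 the differences from dendritic cells were 0.75 ± 0.433 and 0.63 ± 0.637 in macrophages and -0.13 ± 0.321 and -0.48 ± 0.571 in monocytes, and none passed (edgeR, adjusted p of 0.219 or more). The shares of all genes that passed were 28.4% for macrophages and 24.2% for monocytes.

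Because a UMI counts 1 transcript whatever its length, the balance of CXCL9 and CXCL10 can be read as a share of counted molecules, apart from how well each is captured. CXCL9 made up 98.3% of CXCL9 and CXCL10 UMIs in type 1 dendritic cells (exact binomial 95% interval 94.1 to 99.8), 77.3% in mature dendritic cells (74.7 to 79.8), 20.1% in macrophages, 19.2% in type 2 dendritic cells (16.5 to 22.1) and 5.33% in monocytes. These intervals cover counting error only, not the spread over cells or mice. A single type 1 cell held 65 of the 117 CXCL9 UMIs of its class. In reaction 2 type 1 cells had only 11 CXCL9 UMIs and 1 CXCL10 UMI. The mature cells kept to their share in both reactions, at 76.4% and 78.1%, while type 2 cells stood at 9.74% and 22.2%. Across mice the macrophage share ran from 2.89% to 37.0% (median 16.7%) and the monocyte share from 0.427% to 12.4% (median 5.52%). In 14 of 14 mice it was higher in macrophages than in monocytes, although the ranges over mice overlapped.

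**Figure D2:**
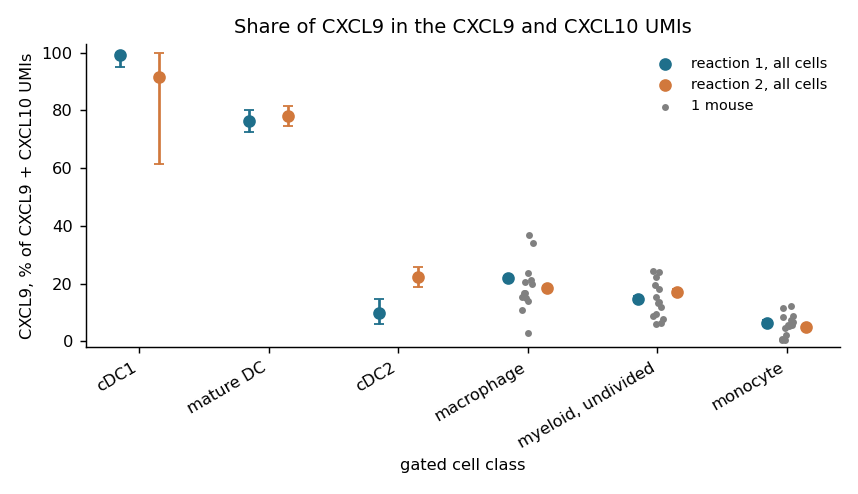
Share of CXCL9 in the CXCL9 and CXCL10 UMIs (%) by gated class; large points are all cells of a reaction with exact binomial 95% intervals and small grey points single mice. The intervals cover counting error only. Type 1 (cDC1) and mature dendritic cells lie between 76.4% and 99.1%, macrophages at 22.0% and 18.5%, type 2 cells (cDC2) at 9.74% and 22.2% and monocytes at 6.29% and 4.98% in reactions 1 and 2.

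Within senders the ligands were concentrated in few cells. The 91 cells richest in a ligand, 1% of all senders, held 61.7% of CXCL9, 39.0% of CXCL10 and 78.2% of CXCL11 UMIs, with up to 185, 427 and 168 UMIs in a single cell. The other extreme was as marked, since 70.5% of senders had no UMI of any of the 3. CXCL10 alone was found in 17.9%, CXCL9 alone in 3.87%, CXCL11 alone in 0.548% and all 3 together in 1.82%. CXCL11 was nested within CXCL10: of 380 senders with CXCL11, 82.9% also held CXCL10, against 22.4% of those without CXCL11. Thinning to 2000 UMIs left this nearly as it was, at 81.8% against 14.4%. CXCL9 overlapped less, with CXCL10 in 57.2% of the 859 cells that held CXCL9 and in 21.6% of those that did not, or 52.8% and 13.6% after thinning. These are descriptions over pooled cells, and cells of 1 mouse are not replicates.

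Macrophages that held different ligands also differed in which other interferon-induced genes they carried. They were parted into cells with both CXCL9 and CXCL10 (140 and 178 in reactions 1 and 2), CXCL9 alone (114 and 95), CXCL10 alone (407 and 402) and neither (1212 and 1041), and the counts of each part were summed per mouse. Of the 14 mice, 13 had at least 5 cells in every part. A list of 12 interferon gamma targets (guanylate binding proteins, IDO1, antigen processing genes) had median summed levels of 816 CPM in cells with neither ligand, 918 with CXCL9 alone, 1463 with CXCL10 alone and 2304 with both. The order of the last 2 parts was the same in 13 of 13 mice. A list of 10 type I interferon targets (IFIT, MX and OAS genes among them) had medians of 1894, 1697, 3896 and 3770 CPM in the same order. CXCL10-only cells were above CXCL9-only cells in 13 of 13 mice for both lists. CXCL9-only cells exceeded cells with neither in 10 of 13 mice for the interferon gamma list, but in 1 of 13 for the type I list. IFIT1, an antiviral gene of the type I response, stood at 305 and 194 CPM (reactions 1 and 2) with CXCL10 alone and at 40.0 and 29.0 with CXCL9 alone, below the 70.1 and 51.0 of cells with neither. GBP5, a guanylate binding protein that interferon gamma induces, was at 173 and 175 CPM with both ligands, 63.5 and 67.0 with CXCL10 alone, 27.6 and 23.6 with CXCL9 alone and 14.5 and 15.8 with neither. IFNGR2, a chain of the interferon gamma receptor, lay between 187 and 238 CPM in all parts of both reactions. Deeper cells are likelier to show a ligand, and in reaction 2 the median depth was 15066 UMIs with both ligands and 12229 with neither, a part in the pattern that was not tested.

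**Figure D3:**
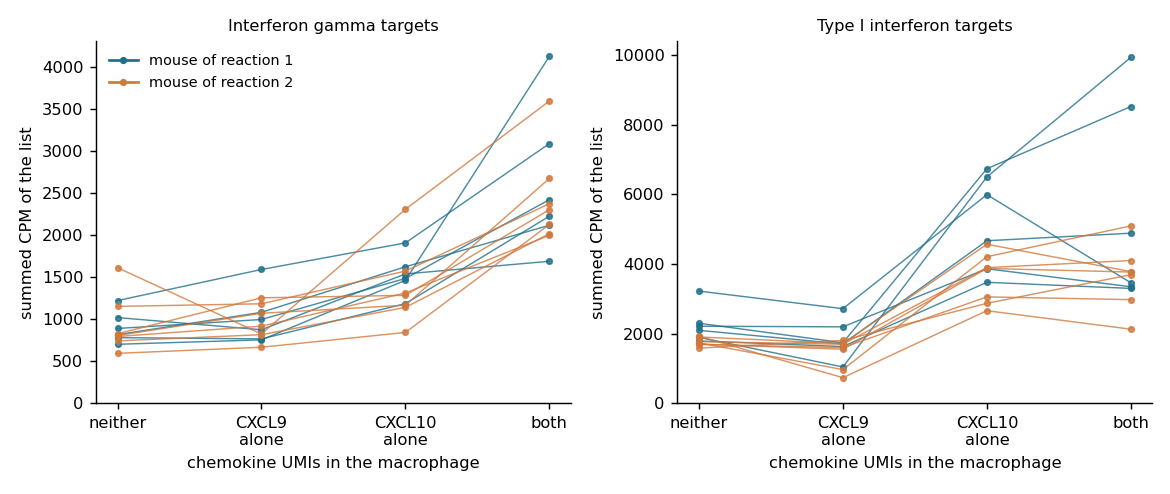
Summed CPM of 12 interferon gamma targets and 10 type I interferon targets in macrophages of each mouse, parted by whether the cell held CXCL9, CXCL10, both or neither; each line is 1 of 13 mice, colored by reaction. Interferon gamma targets are highest with both ligands, and type I targets are high wherever CXCL10 is present and low with CXCL9 alone.

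The genes whose levels over the 14 macrophage sums were most like each ligand also differed. Closest to CXCL9, after reaction means were taken off, were GBP4 (Pearson r = 0.94), NMI, UBE2L6, GBP5 and LAP3, all at r of 0.92 or more among 8801 genes. CXCL10 was closest to GBP1 (r = 0.93), followed by DYNLT1, ISG20, DCUN1D3 and APOL3. CXCL11 had looser company, with TLR1 (r = 0.84), UGGT1, RC3H2, CCL3 and DDX58, the gene of the viral RNA sensor RIG-I, at 0.79. These coefficients share libraries and depth and are given with no test.

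CXCR3 was spread over several lymphoid classes. Its level was 92.7 CPM in regulatory T cells (95% Poisson interval 85.9 to 99.9), 82.5 in plasmacytoid dendritic cells (70.1 to 96.4), 66.1 in CD8 T cells (56.7 to 76.7), 54.3 in other T cells (49.1 to 60.0) and 50.5 in NK cells (44.8 to 56.7). Type 1 dendritic cells followed at 28.2 CPM (17.7 to 42.7) and B cells at 9.90. Macrophages, at 1.22, and monocytes, at 0.518, were lower still, and no CXCR3 UMI was found in 69 type 2 dendritic cells, which allows up to 4.38 CPM. Neighbors in this order were not apart beyond their spread over mice: regulatory T cells ran from 63.3 to 111 CPM in 10 mice, CD8 T cells from 53.6 to 92.9 in 7 mice, other T cells from 25.1 to 131 in 11 mice and NK cells from 30.95 to 74.9 in 14 mice. The other T cells also differed between reactions, at 76.7 and 47.8 CPM, whereas regulatory T cells stood at 92.4 and 92.8. Regulatory T cells were gated by FOXP3 UMIs, so those without a captured one fall among other T cells, and reaction 1 was the shallower. Other T cells carried the regulatory T markers IKZF2, CTLA4 and IL2RA at 481, 177 and 120 CPM, against 1324, 446 and 715 in regulatory T cells. The part of such cells in these values was not tested. Within mice, CXCR3 was higher in regulatory than in other T cells in 8 of 10, higher than in NK cells in 10 of 10, and CD8 T cells exceeded regulatory T cells in 1 of 7. The share of cells with a CXCR3 UMI was 52.9% in plasmacytoid dendritic cells, 43.6% in regulatory T cells and 28.8% in NK cells, but their median depths were 12591, 6955 and 6729.5 UMIs. Thinned to 2000 UMIs the shares were 16.1%, 14.8% and 9.18%, against 0.466% in macrophages.

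Among T cells and NK cells of the same 12 mice, T cells ran from 57.9 to 102 CPM of CXCR3 (median 71.2) and NK cells, over 14 mice, from 30.95 to 74.9 (median 49.4). T cells were higher in 12 of 12 mice, by 0.63 ± 0.119 on the log2 scale (edgeR, adjusted p = 0.000138), in a contrast where 42.4% of 7429 genes passed. The share of thinned cells with CXCR3 was 14.1% ± 4.41 in T cells and 9.51% ± 2.79 in NK cells, higher in T cells in 8 of 12 mice (exact sign-flip permutation test, two-sided, p = 0.0107). Within reaction 1 that gap was 7.12 points with p = 0.0625 and within reaction 2 it was 2.06 points with p = 0.312 by the same exact test. CD8 T cells against all remaining T cells, regulatory ones included, gave a log2 difference of 0.00495 ± 0.166 in 7 mice (edgeR, adjusted p = 0.998), while 14.2% of 7440 genes passed. The cells between T and NK were in neither group, yet carried CD8A and CD8B at 140 and 64.3 CPM, against 30.2 and 3.38 in NK cells. Of these cells 8.81% held CXCR3 after thinning, against 12.8% of the gated CD8 T cells. The contrast thus covers only CD8 T cells with few NK markers. Over the pooled classes the genes most like CXCR3 were XRCC5 (r = 0.95 over 15 classes, 13630 genes compared), TSPYL2, CHPF, SLC38A5 and SPNS3, which is a description over classes that share libraries.

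Transcripts of interferon gamma lay in lymphocytes and those of its receptor mostly in myeloid cells. IFNG, the gene of interferon gamma, was at 226 CPM in CD8 T cells, 158 in the cells between T and NK, 126 in NK cells and 106 in other T cells. Maraviroc mouse 1 of reaction 2 gave 366 of the 601 IFNG UMIs of CD8 T cells, and without it they were at 110 CPM (96.3 to 125) and NK cells at 117, so that these classes had no clear order. IFNG stood at 6.10 in regulatory T cells, the class with the most CXCR3. Its receptor genes IFNGR1 and IFNGR2 were at 180 and 209 CPM in macrophages and 236 and 271 in monocytes, against 36.8 and 12.6 in T cells. TBX21 was at 47.1 CPM in NK cells, 29.7 in CD8 T cells and 27.5 in regulatory T cells, but at 0.525, from 1 UMI, in plasmacytoid dendritic cells, which carry CXCR3 at a level close to that of regulatory T cells. DPP4, a surface peptidase known to clip CXCR3 ligands, was at 273 CPM in plasmacytoid dendritic cells and 67.0 in regulatory T cells, against 20.1 in NK cells. CCL5, a chemokine of cytotoxic lymphocytes, was at 3495 CPM in CD8 T cells and 2700 in NK cells.

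Between maraviroc-treated and untreated mice no member passed in any class tested. In senders CXCL9 ran from 14.4 to 315 CPM in untreated mice (median 59.6) and from 47.7 to 146 under maraviroc (median 93.0). The maraviroc range lay inside the untreated one, and 5 of 7 treated mice were above the untreated median. The log2 fold change was -0.020 ± 0.53 (SE; 95% interval -1.06 to 1.02; edgeR, adjusted p = 0.9996), and its sign depended on single mice: it was 0.68 without untreated mouse 1 of reaction 1, the highest of all, 0.011 to 0.097 without maraviroc mouse 2 of reaction 1, maraviroc mouse 2 or 4 of reaction 2 or untreated mouse 1 of reaction 2, and -0.44 without the 2 mice nearly lacking T cells. CXCL10 ran from 219 to 788 CPM in untreated senders (median 312) and from 312 to 659 under maraviroc (median 483). All 7 treated mice were above the untreated median, but maraviroc mouse 2 of reaction 1 all but tied with it, at 311.8 against 311.6 CPM. The fold change of CXCL10 was 0.16 ± 0.308 (-0.44 to 0.76, edgeR, adjusted p = 0.9996) and turned to -0.079 without the 2 mice nearly lacking T cells. The exact permutation test of its log2 levels, two-sided, gave p = 0.364. In 453 of 12898 genes the unadjusted p in senders was under 0.05, none passed after adjustment (0%), and DESeq2 called 0 as well.

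**Figure D4:**
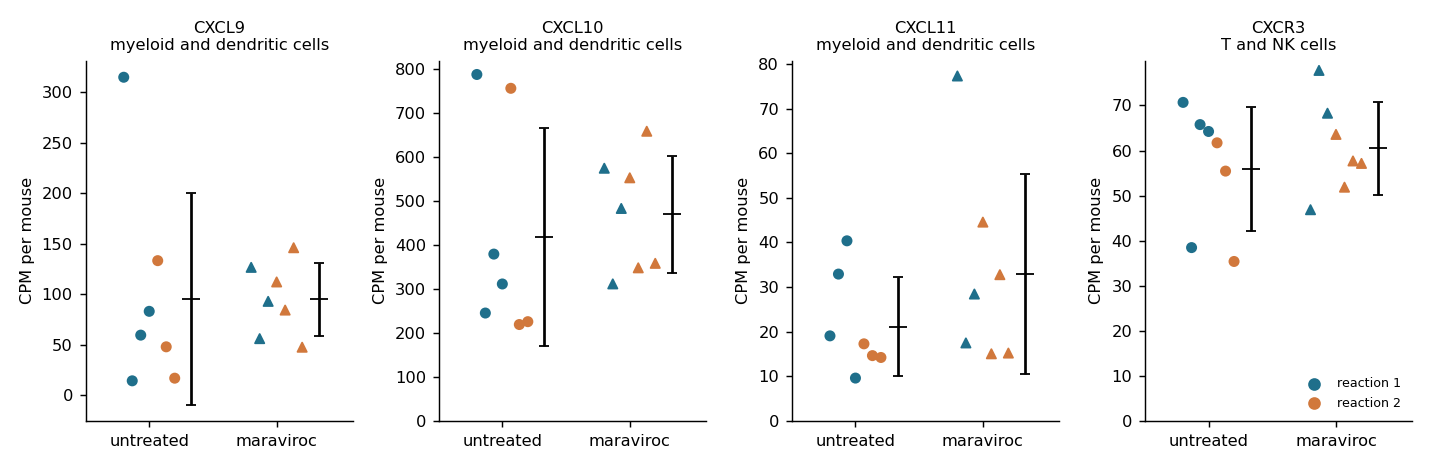
CPM per mouse of CXCL9, CXCL10 and CXCL11 in senders and of CXCR3 in T and NK cells, for untreated and maraviroc-treated mice; each point is a mouse colored by reaction, and bars give the mean and SD. The groups overlap in all 4 panels, and the single untreated mouse at 315 CPM stands apart for CXCL9.

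CXCL11 was the member with the largest difference. In senders it ran from 9.60 to 40.4 CPM in untreated mice (median 17.3) and from 15.04 to 77.3 under maraviroc (median 28.4), a log2 fold change of 0.65 ± 0.385 (-0.10 to 1.41; edgeR, adjusted p = 0.9996). In macrophages alone it ran from 8.53 to 35.3 CPM in untreated mice (median 16.6) and from 14.5 to 138 under maraviroc (median 33.04), above the untreated median in 6 of 7 treated mice but with overlapping groups. The fold change there was 1.54 ± 0.394 (0.77 to 2.31), with an unadjusted edgeR p of 0.00103 and an adjusted p of 0.9996. In this comparison 285 of 10871 genes had an unadjusted p under 0.05 and 0% passed after adjustment, by edgeR or DESeq2. The exact permutation test of log2 CPM, two-sided, gave p = 0.0186 over all mice and 0.0237 with treatments permuted within reactions, as 1 of 12 such tests of members. The fold change was 1.97 in reaction 1 and 1.11 in reaction 2, and 1.04 without maraviroc mouse 1 of reaction 1, the mouse at 138 CPM. Leaving out that mouse lowered the value in senders to 0.30. In monocytes CXCL11 differed by 0.93 ± 0.368 (edgeR, unadjusted p = 0.0206, adjusted p = 0.9998). CXCL9 and CXCL10 differed by 0.20 ± 0.621 and 0.32 ± 0.338 in macrophages and by 0.057 ± 0.506 and 0.12 ± 0.39 in monocytes, none of them passing in edgeR after adjustment. Without maraviroc mouse 3 of reaction 2, which had only 60 macrophages, macrophage CXCL9 was at -0.15, without untreated mouse 2 of reaction 1 at -0.0070, and without both mice nearly lacking T cells at -0.25.

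CXCR3 in receivers ran from 35.4 to 70.7 CPM in untreated mice (median 61.7) and from 46.9 to 77.8 under maraviroc (median 57.7). The groups overlapped, with 3 of 7 treated mice above the untreated median. The log2 fold change was 0.090 ± 0.150 (95% interval -0.20 to 0.38; edgeR, adjusted p = 0.9902), and -0.060 without the 2 mice nearly lacking T cells. It was -0.080 ± 0.145 in T cells (5 untreated and 7 treated mice), -0.18 ± 0.217 in NK cells, -0.085 ± 0.153 in regulatory T cells (5 and 5 mice) and -0.27 ± 0.309 in CD8 T cells (3 and 4 mice), and no interval excluded 0 (edgeR, adjusted p of 0.924 or more). In receivers 466 of 11295 genes had an unadjusted p under 0.05 and none passed in edgeR or DESeq2. In T cells DESeq2 called 1 gene and edgeR 0. The thinned share of cells differed between treatments by -0.149 points for CXCL9, 0.312 for CXCL10 and 0.691 for CXCL11 in senders, and by 1.45 for CXCR3 in receivers (exact permutation tests, two-sided, p = 0.916, 0.926, 0.142 and 0.373). A difference of treatment effects between the reactions passed for no member in edgeR (adjusted p of 0.720 or more).

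Of the other genes of the pathway, in 8 lists, 0 passed in senders, macrophages or receivers (edgeR), so the counts of direction are descriptions. In senders they include the 2 untreated mice nearly lacking T cells, which had the lowest GBP1 of all, 97.4 and 79.9 CPM. The directions without these mice were not examined. In senders 11 of 12 interferon gamma targets had a fold change above 0, with a median of 0.13 on the log2 scale beside -0.0064 over all genes, and IDO1 (0.91 ± 0.431), CD274 (0.51 ± 0.305), which encodes PD-L1, and GBP4 (0.34 ± 0.351) had the largest. GBP1 was at 0.22 ± 0.312 and GBP5 at 0.071 ± 0.456. Of 10 type I interferon targets 9 were above 0, with a median of 0.17 and with IFIT2 (0.40 ± 0.199), IFIT1 (0.27 ± 0.227) and RSAD2 (0.23 ± 0.179) in front. Of 16 interferon receptor and signalling genes 13 were above 0 (median 0.094), among them SOCS1 (0.29 ± 0.228), a feedback inhibitor, IRF1 (0.16 ± 0.285) and IFNGR1 (0.033 ± 0.0784), while IFNGR2 was at -0.00063 ± 0.0787. Among sources of interferon, IL15 was at 0.42 ± 0.228, IL27 at 0.26 ± 0.22 and IL18 at -0.21 ± 0.124. CCR7, the lymph node homing receptor of mature dendritic cells, had the largest value of any listed gene in senders, 1.48 ± 0.526 (edgeR, unadjusted p = 0.0121, adjusted p = 0.9996). CCR7 was at 839 CPM in mature dendritic cells and 0.886 in macrophages, and IDO1 was likewise highest in the mature cells. These numbered 60 in treated mice, or 1.44% of senders, and 28 in untreated mice, or 0.565%, and their part in both values was not tested. Within monocytes alone IDO1 was at 1.33 ± 0.649 and within macrophages alone at 0.30 ± 0.672 (edgeR, adjusted p of 0.9996 or more).

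In receivers the lists pointed in no shared direction. Of 7 other migration receptors tested 7 were above 0, with a median of 0.34 beside -0.0094 over all genes, led by S1PR1 (0.84 ± 0.423), which lets lymphocytes leave tissue, CCR4 (0.65 ± 0.422) and CCR2 (0.40 ± 0.372). Within T cells alone, without the 2 untreated mice with 6 and 7 T cells, S1PR1 was at 0.64 ± 0.353, CCR4 at 0.19 ± 0.218 and CCR2 at 0.13 ± 0.325, while CXCR6 (-0.23 ± 0.184) and CCR8 (-0.23 ± 0.389) lay below 0. In regulatory T cells CXCR6 was at -0.40 ± 0.164 (edgeR, unadjusted p = 0.0227, adjusted p = 0.793), CCR8 at -0.36 ± 0.317 and CCR2 at -0.12 ± 0.371. The part of T cell number in the receiver values was not tested. Of 5 CXCR3 regulators 2 were above 0, with TBX21 at 0.11 ± 0.177 and IL12RB2, a receptor chain for interleukin 12, at 0.35 ± 0.228, against EOMES at -0.31 ± 0.217 and RUNX3 at -0.22 ± 0.151. IFNG was at 0.16 ± 0.232, CCL5 at -0.27 ± 0.272, IL15 at -0.35 ± 0.241 and DPP4 at 0.22 ± 0.205. Type I interferon targets had a median of -0.032 and interferon gamma targets of 0.041, and GBP2 (0.36 ± 0.178) was the furthest from 0 among them. For the type I list the classes went opposite ways. Its median was -0.29 in T cells and -0.34 in regulatory T cells, with 0 of 10 genes above 0 in each. In CD8 T cells it was -0.29 with 2 of 10 above 0, but in NK cells 0.22 with 8 of 10. None of these genes passed (edgeR).

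Whether ligand levels in senders went with lymphocyte measures was examined over the 14 mice in 9 relations, and none passed after Benjamini-Hochberg adjustment. CXCL9 and the IFNG level of receivers gave Pearson's r = 0.62 (permutation p = 0.0182, adjusted 0.0818) and Spearman's rho = 0.57 (permutation p = 0.0352, adjusted 0.317). Without the 2 mice farthest from the CXCL9 median r was 0.54 (permutation p = 0.068), and within reactions it was 0.83 and 0.32. CXCL9 and receiver CXCR3 gave r = 0.66 (permutation p = 0.0117, adjusted 0.0818) and rho = 0.41 (permutation p = 0.150, adjusted 0.359). That relation rested on the 2 mice nearly lacking T cells, since without them r was 0.055 (permutation p = 0.866). Within reactions r was 0.54 and 0.85, but each reaction holds 1 of these 2 mice, as in all within-reaction values here. The share of T and NK cells among kept cells ran from 11.9% to 19.8% in reaction 1 and from 15.8% to 52.3% in reaction 2, where fewer cells stayed outside the classes. For CXCL9 and this share r was 0.30 (permutation p = 0.300, adjusted 0.449) and -0.0024 without the same 2 mice, but within reactions it was 0.41 and 0.83 (permutation p = 0.381 and 0.0224). CXCL10 gave r of 0.37 with the share of T and NK cells, 0.49 with IFNG and 0.45 with CXCR3 (adjusted permutation p of 0.233 to 0.347), and with the share it gave 0.16 and 0.83 within reactions (permutation p = 0.730 and 0.0163). CXCL11 gave -0.15, -0.083 and -0.095 (adjusted permutation p of 0.776 to 0.780). The relations of CXCL10 and CXCL11 were not examined without the 2 mice nearly lacking T cells. These mice were also low in sender CXCL10, at 245 and 226 CPM, where untreated mice ran from 219 to 788. How far the CXCL10 relations rest on them was thus not tested.

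**Figure D5:**
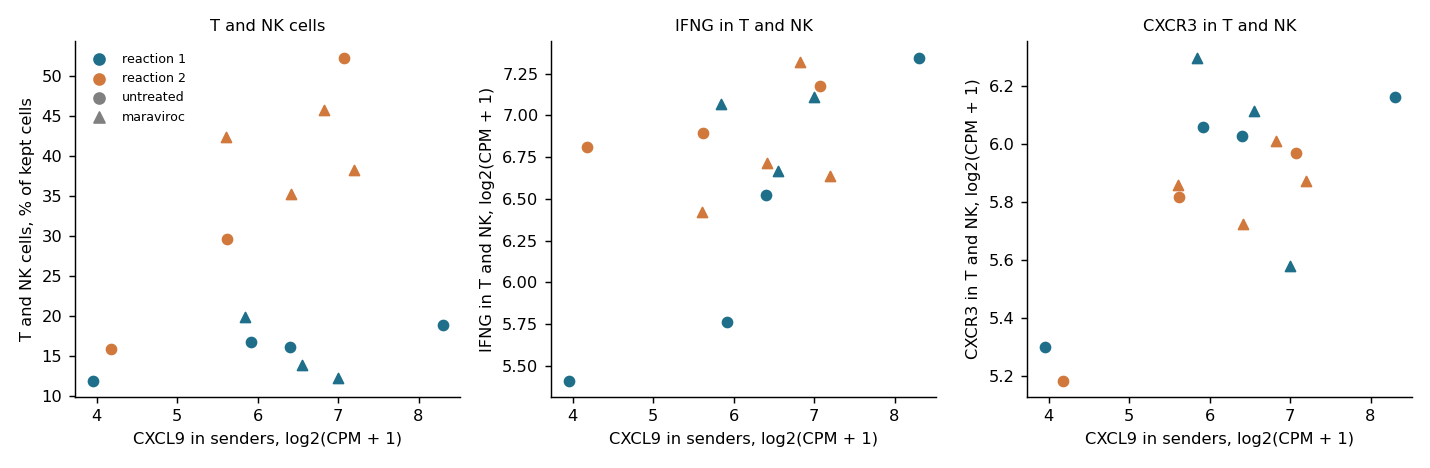
CXCL9 in senders (log2(CPM + 1)) against the share of T and NK cells (% of kept cells), IFNG in T and NK cells and CXCR3 in T and NK cells (both log2(CPM + 1)); each point is 1 of 14 mice, colored by reaction and shaped by treatment. The 2 untreated mice with 6 and 7 T cells lie lowest on both axes of the CXCR3 panel, and without them the CXCR3 relation has r = 0.055.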

How the data were processed

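Human CD45+ cells of 14 mice were captured in 2 Chromium 3′ v3.1 reactions. The deposited files hold raw UMI counts per gene and barcode with hashtag counts in the same matrices, which the authors made with Cell Ranger 9.0.1 on GRCh38; Seurat 5.1.0 is also named in their processing notes. The genes were 4 of 36601 features. All barcodes were called by HTODemux (Seurat 5.3.0, quantile 0.99). Of these, singlets with a mitochondrial share under 12.5% and between 600 (left out) and 6000 genes detected were kept. Treatment was read from the hashtag names, and a mouse is a hashtag within a reaction. Hashtags remove doublets of different mice, not those within a mouse. The labels name the host as organism, whereas the counted RNA is human.

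Classes were set by marker UMIs. Myeloid cells needed 10 UMIs over 4 marker genes. Macrophages and monocytes needed 10 UMIs over 3 genes of their own and more than 2 times those of the other. T cells needed 3 UMIs of CD3D and TRAC together and at most 1 of the NK markers. NK cells needed 3 UMIs over 2 NK markers and at most 1 of CD3D and TRAC, while other T markers were not capped in this way. GNLY was not used in the gates. CD8 T cells needed 2 UMIs of CD8A and CD8B, and regulatory T cells 1 of FOXP3. Cells outside every gate were left out of the comparisons. Counts were summed per mouse and class, for mice with at least 20 cells, and tested with edgeR 4.0.16 (quasi-likelihood, TMM, filterByExpr, Benjamini-Hochberg over all genes tested), with treatment alone, or with the mouse as a block between classes. Intervals of log2 fold changes are the SE times 1.96. Shares used cells thinned to 2000 UMIs. The members and gene lists were chosen with earlier results of these data known. Genes other than the members are named by a rule: fixed pathway genes, the 3 largest fold changes of each list and the 5 most correlated genes. The fits were tested on simulated data.

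Alternatives were above 1000 genes, quantile 0.999, 1 more marker UMI, DESeq2 1.42.0, no low-count filter, thinning to 4000 UMIs, each reaction alone, the reaction as a replicate block and each mouse left out. Leaving out the 2 mice with under 20 T cells was chosen after seeing the data. Results of some genes of the lists are not reported here.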

Additional observations from a re-analysis of the deposited data

Results flagged for a closer look

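In 5 of 26 groups of 5 to 7 mice a single mouse stood apart from the rest of its group by Dixon's test at the 95% level. The test was run on untransformed CPM, whose normal spread was not checked. The groups also overlap, since senders include the macrophages, so this count cannot be set against a chance rate. Untreated mouse 1 of reaction 1 was above the other untreated mice for CXCL9 in senders (315 CPM, next 133), CXCL9 in macrophages (595 CPM, next 148) and CXCL11 in macrophages (35.3 CPM, next 19.0), and it also had the highest IFNG level in T and NK cells of all mice, 162 CPM. Maraviroc mouse 3 of reaction 2, with 60 macrophages, was at 410 CPM for macrophage CXCL9 (next 182). Maraviroc mouse 1 of reaction 1 was at 138 CPM for macrophage CXCL11 (next 64.2).

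Members were also found in classes outside the comparisons, above the level of the cells taken as background. Type 1 dendritic cells, listed below for CXCR3, are the exception, since they belong to the senders. Against 1.31 CPM of CXCL9 in T and NK cells, B cells stood at 13.5 and mast cells at 48.6. Against 11.1 CPM of CXCL10 in T and NK cells, B cells stood at 98.1 (109 UMIs in 161 cells), mast cells at 46.7 and the 26 cells with carcinoma markers at 79.7. For CXCL11, against 0.803 CPM, mast cells were at 9.34 and carcinoma-marker cells at 12.3, from 5 and 2 UMIs. CXCR3, at 1.46 CPM in senders, was at 82.5 in plasmacytoid dendritic cells, 28.2 in type 1 dendritic cells, 9.90 in B cells and 7.47 in mast cells, the last from 4 UMIs. Mast cells had a median of only 1858 UMIs, carried C1QA at 120 CPM, and had CXCL9 at 93.2 CPM in reaction 1 and 3.74 in reaction 2. B cells carried C1QA at 40 CPM. The part of mixed droplets in these levels was not tested.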

How the results depend on the processing

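Depth and few cells limit these results: reaction 1 was shallow, dendritic cells allowed tests in 4 mice only, and the treatment intervals are wide. Of values under other settings, 353 kept direction and side of the threshold, 29 changed sign, 5 lost and 2 gained a call and 5 counts moved; the cause of a change was not tested. Macrophage against monocyte CXCL9 ranged from 2.80 to 3.30 and stayed past the threshold, as CXCL11 did (0.90 to 2.17).

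Log2 values that changed sign, none called before or after, were for maraviroc against untreated: with a stricter hashtag quantile, CXCL9 in senders 0.039 and monocytes -0.062 and CXCR3 in T cells 0.00048; with reaction 1 alone, CXCL9 in macrophages -0.46 and monocytes -0.88, CXCL10 in monocytes -0.32 and CXCR3 in T cells 0.014; with reaction 2 alone, CXCL9 in senders 0.59; without the 2 mice with few T cells, CXCL10 in senders -0.079, CXCL9 in macrophages -0.25 and monocytes -0.29 and CXCR3 in receivers -0.060. With the reaction as a replicate block, CXCL9 in senders was 0.099 and CXCL10 in monocytes -0.0029. In place of the mouse block, it gave -0.00027 for CXCR3 in CD8 against all remaining T cells. No call changed. The reactions share replicate numbers only as batches, and no mouse is paired with another.

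Between classes, CXCR3 in CD8 against all remaining T cells, regulatory ones included, was -0.044 above 1000 genes and -0.061 with the stricter quantile. It was -0.11 with no low-count filter and -0.11 in reaction 2. CXCL10 in monocytes against dendritic cells was 0.088 with the stricter quantile and 0.084 with no filter. Calls were lost for CXCL10 in macrophages against monocytes in reaction 2 (0.55, adjusted p = 0.123, edgeR) and CXCL9 in macrophages against dendritic cells above 1000 genes (-0.67, adjusted p = 0.158, edgeR), and gained for CXCL10 in the latter contrast with no filter (0.95, adjusted p = 0.000102, edgeR).

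Of the shares, in points, CXCL10 in macrophages minus monocytes was 8.02 in reaction 1 (exact permutation p = 0.0625), and CXCR3 in T minus NK cells 7.12 in reaction 1 (p = 0.0625) and 2.06 in reaction 2 (exact permutation p = 0.312). Maraviroc minus untreated in senders was -1.46 for CXCL10 in reaction 1, 0.523 for CXCL9 in reaction 2 and 0.360 with a stricter gate, and 1.28 for CXCL11 with the stricter quantile (exact permutation p = 0.021, 1 of 7 settings to pass). The correlations that changed sign were CXCL9 with the share of T and NK cells (-0.0024) and CXCL11 with CXCR3 (0.019) without the 2 mice farthest from the median, and CXCL11 with the share of T and NK cells (0.42), IFNG (0.44) and CXCR3 (0.50) in reaction 2.

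Genes called for treatment were 0 in senders, macrophages and receivers under all 24 settings, 6 in monocytes of reaction 1, 15 in NK cells with no filter, and 1 in T cells with DESeq2, with no filter or in reaction 2. Leaving out each mouse in turn gave -0.21 to 0.68 for CXCL9 in senders and -0.15 to 1.19 in macrophages. For CXCR3 in CD8 against all remaining T cells it gave -0.094 to 0.14, with 11 changes of sign in these 3 results. The other left-out values kept their direction, among them CXCL11 in macrophages under maraviroc (1.04 to 1.77) and CXCR3 in T against NK cells (0.58 to 0.70).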
